A study of Mus musculus with 4 samples.

Results

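Macrophages and other myeloid cells derive from blood progenitors and differ from fibroblasts in a large set of genes. This report describes 40 such genes, known markers of macrophages and myeloid cells, on 4 arrays made from mouse embryonic fibroblasts. The genes were taken from a fixed list, and each was represented by its brightest probe set by the mean over the 4 arrays. All 40 had a probe set of their own, among 18193 gene symbols with a value. The members had been listed with earlier results of these data known.

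Mouse embryonic fibroblasts are primary cells grown out of embryos, and such cultures can carry cells of other lineages. RNA was hybridized to Affymetrix Mouse Genome 430 2.0 arrays, 1 for each of 4 groups. The groups were Wip1+/+ cells without irradiation, Wip1+/+ cells taken 4 h after a dose of 5 Gy, and cells labelled Wip1-/- in the same 2 states. Wip1 is the phosphatase encoded by Ppm1d, a regulator of p53 and of damage kinases, and the series text names p53 targets as the purpose of the arrays. The sources used here do not give how the Wip1-/- allele was made, how many embryos each genotype came from, or whether the 2 arrays of a genotype share a cell preparation. With 1 array per group no p-value was computed, and precision is limited by how few arrays there are.

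Macrophages develop under the transcription factor PU.1, encoded by Spi1, and survive through the receptor of colony-stimulating factor 1, encoded by Csf1r. They take up particles and debris through Fc, complement, lectin and scavenger receptors, several of which signal through the small adaptors Tyrobp and Fcer1g. They digest what they take up with lysozyme and cathepsins. In the embryo they seed most tissues early and clear dying cells.

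PU.1 is known to bind a purine-rich core with the letters GAGGAA near the start sites of many myeloid genes. The RefSeq promoter table of assembly GRCm38.p6 held 29 of the 40 genes, and the 250 bases before each start site were searched on both strands for GAGGAA, which reads TTCCTC on the other strand. Of those 29 genes, 15 held it (51.7%), against 25.9% of all 27025 genes with a window. The longer form GAGGAAGT, which contains the first, was held by 1 of the 29 (3.45%), C1qc, and by 2.79% of all genes. The letters TATAAA were found in 5 of the 29 (17.2%) and in 14.3% of all genes. A match is a description of the letters and not a measured binding site. The windows of 4 genes with the core and of 2 without it are shown as examples picked by hand. These 6 genes read lower on both arrays labelled Wip1-/-, as 30 of the 40 genes did. Whether the core goes with lower signal was not tested. Each window is given 5′ to 3′ in the direction of the gene, with the core in capitals.
Ctss (chr3:95526536-95526785, + strand): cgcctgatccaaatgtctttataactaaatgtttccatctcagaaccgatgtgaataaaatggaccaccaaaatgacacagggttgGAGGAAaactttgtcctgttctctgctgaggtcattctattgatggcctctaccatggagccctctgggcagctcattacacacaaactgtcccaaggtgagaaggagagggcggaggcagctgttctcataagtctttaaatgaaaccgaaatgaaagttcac
Cd53 (chr3:106790150-106790399, - strand): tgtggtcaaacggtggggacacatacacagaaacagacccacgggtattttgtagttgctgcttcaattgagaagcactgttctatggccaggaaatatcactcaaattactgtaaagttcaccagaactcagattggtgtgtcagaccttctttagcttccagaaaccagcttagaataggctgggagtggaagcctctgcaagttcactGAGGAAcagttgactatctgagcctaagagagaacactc
C1qb (chr4:136886201-136886450, - strand): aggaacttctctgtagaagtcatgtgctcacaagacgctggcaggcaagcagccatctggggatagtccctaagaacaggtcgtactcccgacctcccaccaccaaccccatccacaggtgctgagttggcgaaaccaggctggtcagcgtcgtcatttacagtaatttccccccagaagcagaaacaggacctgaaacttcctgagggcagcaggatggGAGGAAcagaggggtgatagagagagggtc
C1qc (chr4:136892915-136893164, - strand): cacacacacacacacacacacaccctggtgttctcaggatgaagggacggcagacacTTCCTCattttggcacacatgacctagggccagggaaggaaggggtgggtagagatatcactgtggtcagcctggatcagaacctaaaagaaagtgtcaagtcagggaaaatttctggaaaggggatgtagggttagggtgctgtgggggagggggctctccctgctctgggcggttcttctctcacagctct
Lyz2 (chr10:117282273-117282522, - strand): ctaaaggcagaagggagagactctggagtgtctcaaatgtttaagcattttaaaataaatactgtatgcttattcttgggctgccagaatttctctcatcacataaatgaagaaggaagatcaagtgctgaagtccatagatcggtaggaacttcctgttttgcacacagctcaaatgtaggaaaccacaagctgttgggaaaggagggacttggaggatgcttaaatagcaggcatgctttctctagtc
Fcer1g (chr1:171234350-171234599, - strand): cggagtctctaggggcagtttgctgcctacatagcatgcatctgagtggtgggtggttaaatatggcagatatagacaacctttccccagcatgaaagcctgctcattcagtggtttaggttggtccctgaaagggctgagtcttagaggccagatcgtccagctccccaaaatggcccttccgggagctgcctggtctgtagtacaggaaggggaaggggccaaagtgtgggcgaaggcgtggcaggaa

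The arrays were alike in scale, and 1 stood apart. The mean signal after trimming 2% at each end was the same on every array, and median signals lay between 68.4 and 85.8. Over the 18 spike-in hybridization controls, the SD of the log2 ratio was 0.436 to 0.469 in the 3 pairs with the unirradiated array labelled Wip1-/-, and 0.074 to 0.103 in the pairs without it. That array enters every comparison of unirradiated cells by genotype, and the irradiated arrays give the same comparison without it. The targeted gene Ppm1d had signal on all 4 arrays. Its 2 probe sets read 375 and 317 in unirradiated Wip1+/+ cells, 364 and 463 in irradiated Wip1+/+ cells, 504 and 219 on the unirradiated array labelled Wip1-/-, and 482 and 561 on the irradiated one. The position of its probes relative to the altered sequence is not known here, so this signal does not check the labels, and the arrays are called labelled Wip1-/- throughout. All 16 listed markers of fibroblasts, the labelled cell type, had signal above 46.5, the 40th percentile of all values, on all 4 arrays. Their signals ran from 53198 to 83654 for Vim, the brightest, down to 261 to 325 for Dcn, 177 to 285 for Pdgfra and 96.0 to 339 for Lum.

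By median and by sum, the 40 listed genes were lower on the arrays labelled Wip1-/- at both conditions. They were listed with earlier results of these data known, so their counts beside the shares of all named genes are a description. The 45 further myeloid genes measured, listed apart, had median log2 ratios between labels of only -0.17 without and -0.12 with irradiation. The median signal of the 40 genes was 263 and 257 on the Wip1+/+ arrays without and with irradiation, and 95.1 and 80.0 on the arrays labelled Wip1-/-. Their summed signal was 24120 and 25423 against 6128 and 5831, a ratio of 3.94 without and 4.36 with irradiation. Without the 2 lysozymes, which are the brightest members, the ratios of the sums were 2.58 and 3.01. In bulk RNA, fewer cells of a type and less RNA per cell cannot be told apart.

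**Figure D1:**
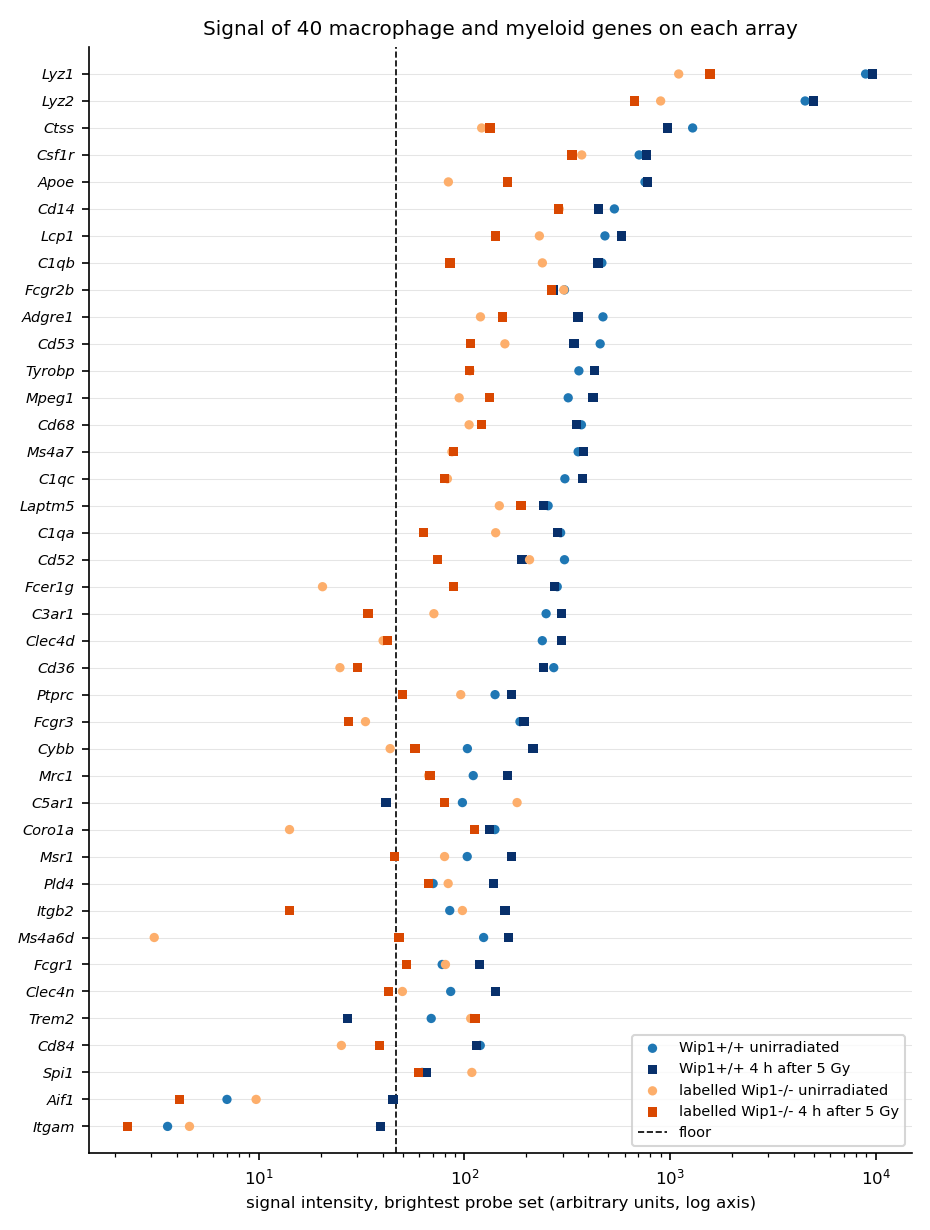
Signal intensity of the brightest probe set of each of the 40 genes on the 4 arrays, on a log axis in arbitrary units, with 1 point per array and genes ordered by mean signal. The dashed line marks the floor of 46.5. For 30 of the 40 genes both points of the arrays labelled Wip1-/- lie left of both Wip1+/+ points.

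Signals under 46.5 were set to that value, the floor, before ratios were taken, and a ratio against the floor is a lower bound. In unirradiated cells the median log2 ratio, labelled Wip1-/- over Wip1+/+, was -1.10 over the 40 genes and 0.00 over all named genes. By a rule of size, 22 of the 40 genes were at least 2-fold lower and 0 at least 2-fold higher. Among all named genes 5.07% were at least 2-fold lower and 5.58% at least 2-fold higher. In irradiated cells the median was -1.68, and 31 of the 40 genes were at least 2-fold lower, against 2.31% of all named genes. Only Trem2 was at least 2-fold higher there, against 1.87%. The 2 comparisons share no array. At both conditions 21 of the 40 genes were at least 2-fold lower, against 0.852% of all named genes. For 30 genes both arrays labelled Wip1-/- read below both Wip1+/+ arrays, against 13.7% of all named genes, and for 1 gene both read above, against 15.1%. Among genes with a mean signal of 100 to 1000, a range chosen after the values were seen, 1.53% were at least 2-fold lower at both conditions, and 17 of the 25 members in that range were. Some members, such as Fcgr3 and Cd36, entered the range only through their Wip1+/+ signals, which favors a call of lower. The count of 17 is therefore a description.

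As a measure of error, probe sets of one gene were compared over all genes with several, and their log2 ratios had a pooled SD of 0.649 in the unirradiated comparison and 0.408 in the irradiated one. It covers differences between probes and not those between cultures. Of the 40 genes, 20 had further, dimmer probe sets, 36 in all. Without irradiation 21 of these 36 were lower on the array labelled Wip1-/-, 12 equal at the floor and 3 higher. With it 23 were lower, 9 equal and 4 higher. Since 16 of the 36 were at the floor on both arrays labelled Wip1-/-, 9 of them on all 4 arrays, these 16 could only read lower or equal, and the counts are a description. Across the 40 genes the log2 ratios at the 2 conditions had a Pearson r of 0.75 and a Spearman rho of 0.73. Over all 18193 named genes r was 0.26 and rho 0.15. The genes share arrays and a floor, and no p is given.

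**Figure D2:**
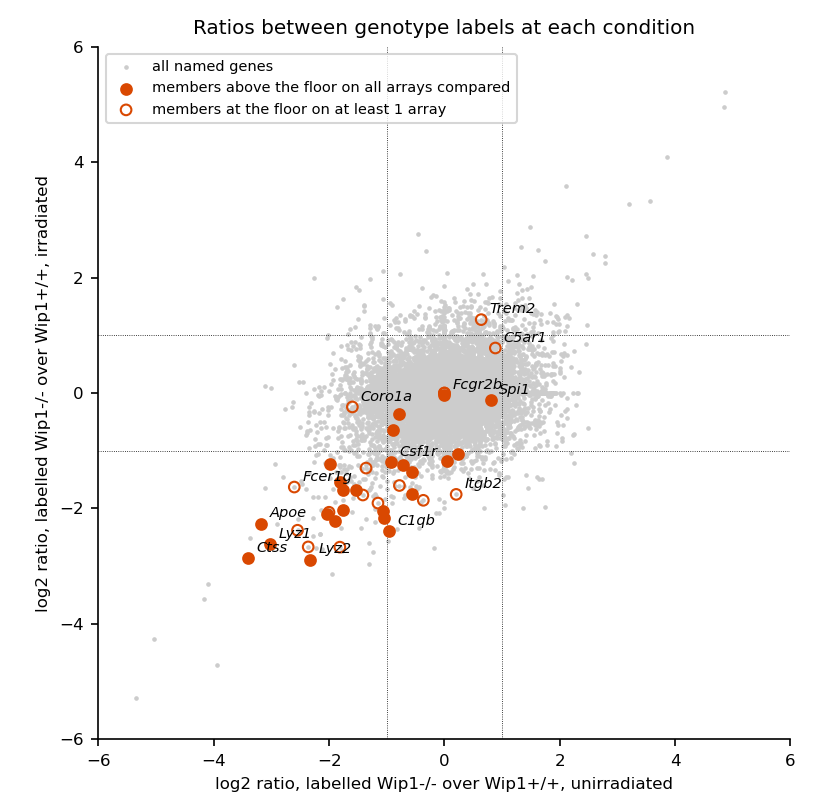
Log2 ratio of each gene, labelled Wip1-/- over Wip1+/+, in unirradiated cells (horizontal) and irradiated cells (vertical), with all 18193 named genes in grey and the 40 myeloid genes in orange. Open symbols are myeloid genes at the floor on at least 1 array, and dotted lines mark a 2-fold difference. Of the 40 genes, 21 lie beyond 2-fold lower on both axes.

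Genes of the lysosome and of microbial killing held the 3 brightest members. Of these 8 genes, 6 were at least 2-fold lower at both conditions, against 0.852% of all named genes. The median log2 ratio of the 8 was -1.79 at each condition. Ctss, a cathepsin of phagocyte lysosomes, read 1287 and 970 in Wip1+/+ cells, without and with irradiation, and 121 and 133 in cells labelled Wip1-/-. Values below are given in this order, with the Wip1+/+ pair first. It was 10.6-fold lower without irradiation and 7.29-fold lower with it, and the labels did not overlap. Lyz2, the lysozyme of macrophages, read 4533 and 4986 against 899 and 673, which is 5.04-fold and 7.41-fold lower.

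Lyz1, the lysozyme of intestinal Paneth cells, was the brightest member by its named probe set, at 8923 and 9605 against 1101 and 1565. That probe set and the second of the gene carry the suffix _x_at, used for probes that can also match other transcripts. The third probe set of Lyz1, which lacks the suffix, read 29.6 and 58.9 against 140 and 33.8. The bright signal therefore cannot be told apart from that of Lyz2. Without Lyz1 the median of the other 39 genes was -1.06 and -1.68, and 20 of them were at least 2-fold lower at both conditions.

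Cd68, a glycoprotein of macrophage lysosomes, read 370 and 351 against 105 and 121. It was 3.52-fold lower without irradiation and 2.90-fold lower with it. Mpeg1, a pore-forming protein that attacks ingested bacteria, read 319 and 422 against 94.2 and 132. Cybb, the catalytic subunit of the phagocyte NADPH oxidase, read 103 and 215 against 43.5 and 57.4, so its ratio is at least 2.22-fold lower without irradiation and 3.75-fold lower with it. All 3 of these genes kept the labels apart. Another probe set of Cybb did not, at 87.6 and 86.9 against 79.1 and 91.2. Laptm5, a lysosomal membrane protein of blood cells, read 255 and 243 against 148 and 188 by its brightest probe set, under 2-fold at both conditions. Its second probe set read 245 and 219 against 50 and 74.6. Pld4, a lysosomal nuclease, read 70.4 and 139 against 83.3 and 66.8, and its arrays overlapped.

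The surface proteins of leukocytes were lower to different degrees. Of 10 such genes, 5 were at least 2-fold lower at both conditions, against 0.852% of all named genes. In 7 both arrays labelled Wip1-/- read below both Wip1+/+ arrays, against 13.7% of all named genes. Adgre1 encodes F4/80, the surface marker of mouse macrophages, and read 471 and 357 against 120 and 153. This was 3.94-fold lower without irradiation and 2.34-fold lower with it. Ms4a7, a membrane protein of mature macrophages, read 357 and 381 against 86.9 and 88.6, 4.11-fold and 4.29-fold lower. Its relative Ms4a6d read 124 and 164 against 3.1 and 48.1. The first of these ratios is a bound of at least 2.66-fold and the second was 3.41-fold.

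Cd53, a leukocyte tetraspanin, read 457 and 341 against 157 and 107, 2.91-fold and 3.19-fold lower. Cd84, a receptor of the SLAM family, read 119 and 115 against 25.2 and 38.6, at least 2.57-fold and at least 2.46-fold lower. Its other probe set, near or under the floor, read alike in both labels, at 19.1 and 55.7 against 21.8 and 56.5. Cd14, the coreceptor for bacterial lipopolysaccharide, is also made outside blood cells. It read 536 and 449 against 289 and 287, under 2-fold lower at both conditions, although the labels did not overlap. Ptprc, which encodes the pan-leukocyte phosphatase CD45, read 141 and 169 against 95.9 and 49.9. It was 1.47-fold lower without irradiation and 3.38-fold lower with it.

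Other surface genes gave no clear separation. Cd52, a small leukocyte glycoprotein, read 306 and 191 against 207 and 74.1, so that the labels overlapped. Itgb2, the shared beta chain of leukocyte integrins, read 84.8 and 157 against 97.7 and 14.1. Only its irradiated pair was at least 2-fold apart, by a bound of at least 3.38-fold. Itgam, the alpha chain that pairs with it in the receptor Mac-1, was under the floor on all 4 arrays, at 2.3 to 39.0. Among the actin regulators, Lcp1, the leukocyte plastin, read 482 and 580 against 231 and 141, which is 2.08-fold and 4.10-fold lower. Coro1a, a leukocyte coronin, read 141 and 132 against 14.1 and 112, and its second probe set read 78.3 and 84.0 against 80.0 and 52.9. Aif1, which encodes the microglial marker Iba1, was under the floor on all 4 arrays, at 4.1 to 44.9.

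The adaptors that carry activating signals were both lower, and so were several receptors that use them. Tyrobp, the adaptor of Trem2 and other receptors, read 360 and 430 against 106 and 106. It was 3.39-fold lower without irradiation and 4.06-fold lower with it. Fcer1g, the adaptor of activating Fc receptors, read 283 and 274 against 20.4 and 88.4, at least 6.08-fold and 3.10-fold lower. Fcgr3, a low-affinity activating Fc receptor, read 186 and 195 against 33.0 and 27.2, at least 4.00-fold and at least 4.19-fold lower. Clec4d, a lectin receptor for mycobacterial glycolipid that also signals through Fcer1g, read 239 and 296 against 40.2 and 42.1. Both of its ratios are bounds, of at least 5.14-fold and at least 6.36-fold. Clec4n, which encodes Dectin-2, read 85.7 and 141 against 49.9 and 42.8, 1.72-fold and at least 3.04-fold lower.

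Other receptors of this group overlapped between labels or read higher. Fcgr2b, the inhibitory Fc receptor, read 306 and 271 against 304 and 264. Its log2 ratios of -0.01 and -0.04 were within the SD between probe sets. It was the only member with a mean signal of 200 or more, of 17, whose labels overlapped. That mean includes the Wip1+/+ arrays, so the bar favors members that are high there. Fcgr1, the high-affinity Fc receptor, read 77.9 and 118 against 80.8 and 52.1, alike without irradiation and 2.27-fold lower with it. Its other probe set read 112 and 85.0 against 73.8 and 7.5, with no overlap. Trem2, a lipid receptor of tissue macrophages, read 68.9 and 26.9 against 107 and 112, and was the only member with both arrays labelled Wip1-/- above both Wip1+/+ arrays. Its other probe set was under the floor on all 4 arrays.

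The chains of C1q, the first component of complement, were lower at both conditions. C1qa read 293 and 284 against 142 and 63.4, 2.07-fold and 4.47-fold lower. C1qb read 466 and 446 against 239 and 85.0, 1.95-fold and 5.24-fold lower. C1qc read 308 and 374 against 82.6 and 80.0, 3.73-fold and 4.68-fold lower. All 3 had no overlap between labels, and so did the other 2 probe sets of C1qb. C3ar1, the receptor of the anaphylatoxin C3a, read 249 and 296 against 71.0 and 33.9, 3.51-fold and at least 6.37-fold lower. C5ar1, the receptor of C5a, was higher on the array labelled Wip1-/- at each condition, at 97.7 and 41.6 against 180 and 79.9, although the labels overlapped. This was 1.84-fold without irradiation and at least 1.72-fold with it. Its second probe set read 93.6 and 83.2 against 53.6 and 10.8, so that the probe sets of this gene disagreed.

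All 4 genes of scavenging and lipid transport read lower on both arrays labelled Wip1-/-. Apoe, the lipid carrier that macrophages secrete, read 754 and 777 against 83.5 and 162. It was 9.03-fold lower without irradiation and 4.81-fold lower with it. Cd36, a receptor for oxidized lipid and fatty acids, read 272 and 242 against 24.8 and 30.2, at least 5.84-fold and at least 5.20-fold lower. Its other probe sets were dimmer and under the floor on both arrays labelled Wip1-/-. Their log2 ratios were under 2-fold, at -0.87 and -0.96 for one and 0.00 and -0.54 for the other. Apoe, Cd36, Mrc1, Cd14 and Cd68 are also known in cells outside the blood lineages. Without these 5 the median log2 ratio of the other 35 genes was -1.06 and -1.68. Msr1, the class A scavenger receptor, read 103 and 169 against 80.0 and 45.6, 1.29-fold and at least 3.63-fold lower. Mrc1, the mannose receptor, read 110 and 162 against 66.9 and 67.9, 1.65-fold and 2.38-fold lower.

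Of the growth factor receptor and the lineage factor, the first separated the labels and the second did not. Csf1r read 707 and 768 against 372 and 333, 1.90-fold lower without irradiation and 2.30-fold lower with it. Its other 2 probe sets read 423 and 391 against 233 and 213, and 442 and 376 against 166 and 202. All 3 probe sets thus had no overlap between labels. Spi1 was dim, at 62.3 and 65.1 against 109 and 59.6, and gave no separation. The ligand Csf1, which fibroblasts secrete, was bright on all 4 arrays, at 5958 and 5761 against 8612 and 6992. Il34, the other ligand of Csf1r, read 4.5 to 48.9. Csf2, a myeloid growth factor, read 3.7 to 9.2, and Csf3 read 54.8 to 98.9. Cxcl12, a stromal chemokine, read 16874 and 16205 against 14675 and 13154, and Hc, which encodes C5, read 10.5 to 45.0. None of the 6 measured ligand genes was 2-fold apart between labels. A call of lower needs a Wip1+/+ signal at least 2 times the floor. Il34, Csf2 and Hc did not reach that, and Csf3 did only with irradiation. Il34 read 48.9 and 43.2 against 4.5 and 48.9, a fall without irradiation that the floor kept under 2-fold.

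Most of these genes, like most named genes, were less than 2-fold apart after irradiation. In Wip1+/+ cells the median log2 ratio, irradiated over unirradiated, was 0.07 over the 40 genes. Of these, 2 (5.0%) were at least 2-fold apart, against 2.87% of all named genes. Cybb was 2.08-fold higher, but its other probe sets had log2 ratios of 0.01 and -0.01. C5ar1 was at least 2.10-fold lower, and its second probe set had a log2 ratio of -0.17. On the arrays labelled Wip1-/- the median was -0.003, and 6 genes were at least 2-fold apart, against 9.27%. C1qb, Cd52, C5ar1 and C1qa were 2.81-, 2.80-, 2.26- and 2.24-fold lower, and Itgb2 was at least 2.10-fold lower. Coro1a was at least 2.40-fold higher. The SD between probe sets was 0.370 in Wip1+/+ cells and 0.624 on the arrays labelled Wip1-/-, which include the array that stood apart in its spike-in controls. The other 2 probe sets of C1qb had log2 ratios of -0.01 and -0.92, and the second of Coro1a had -0.60. For 3 of the 40 genes, Itgb2, Msr1 and Fcgr1, the ratios went opposite ways in the 2 genotype labels by at least 1.5-fold each, against 1.84% of all named genes. The unirradiated arrays are labelled 0 h, so effects of radiation and of 4 h in culture cannot be told apart.

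**Figure D3:**
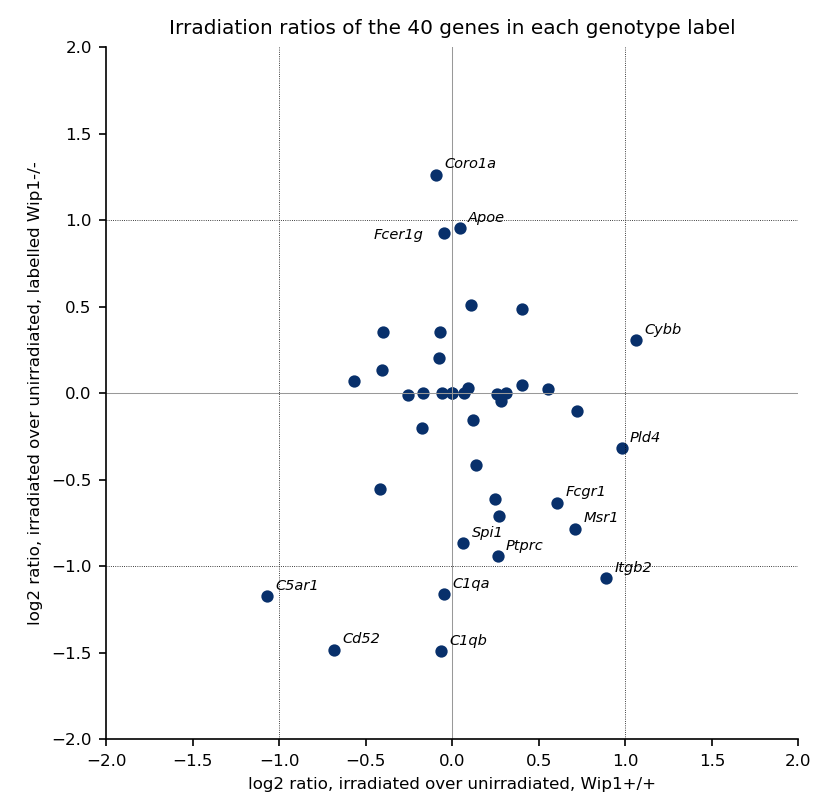
Log2 ratio of irradiated over unirradiated signal for each of the 40 genes in Wip1+/+ cells (horizontal) and on the arrays labelled Wip1-/- (vertical), with dotted lines at a 2-fold difference. In Wip1+/+ cells 2 genes lie beyond 2-fold and on the arrays labelled Wip1-/- 6 do. Genes at the floor on both arrays of a pair lie at 0.

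Further myeloid genes were listed apart from the 40. Of 45 measured, 38 were above the floor on any array. Of the 45, 9 were at least 2-fold lower without irradiation and 7 with it, and 4 at both. The shares of all named genes were 5.07%, 2.31% and 0.852%. At least 2-fold higher were 1 without irradiation and 2 with it, against 5.58% and 1.87% of all named genes. The median log2 ratios of the 45 were -0.17 and -0.12. Ccl6, a chemokine of myeloid cells, read 203 and 302 against 4.0 and 6.0, at least 4.36-fold and at least 6.49-fold lower. Ccl9, a related chemokine, read 531 and 671 against 207 and 148, and Gpnmb, a glycoprotein of lipid-laden macrophages, 2114 and 2283 against 532 and 1083. Mmp12, the macrophage elastase, read 200 and 228 against 124 and 66.8. The higher genes, named after their values were seen, were Csf3r, a receptor of granulocyte growth factor, and Ccr2 and Dock2, a monocyte chemokine receptor and a regulator of leukocyte migration. Csf3r read 41.8 and 42.6 against 94.4 and 12.3, and Ccr2 read 12.5 and 62.4 against 22.6 and 134. Dock2 read 105 and 53.8 against 14.2 and 117, at least 2.26-fold lower without irradiation and 2.18-fold higher with it. Cybb has 4 measured partners in the NADPH oxidase. In 3 of them both arrays labelled Wip1-/- read below both Wip1+/+ arrays, against 13.7% of all named genes. Of these, Rac2 read 127 and 115 against 28.7 and 11.6. The other 2 were dim and, with the floor, under 2-fold without irradiation. Ncf4 read 72.5 and 99.5 against 12.6 and 34.1, and Ncf1 85.0 and 113 against 41.7 and 60.8. Cyba, the fourth and a gene of many cell types, read 5205 and 4963 against 8830 and 4578.

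Of 11 measured genes that signal downstream of the adaptors, 3 were at least 2-fold lower without irradiation and 0 with it. The shares of all named genes were 5.07% and 2.31%. The 3 genes were Ptpn6 and Inpp5d, which encode inhibitory phosphatases of blood cells, and Fyb, an adaptor of their adhesion. Lcp2, the adaptor SLP-76, went the other way without irradiation, at 41.4 and 87.1 against 108 and 46.1, at least 2.31-fold higher in the first pair and at least 1.87-fold lower in the second. Of 10 measured myeloid transcription factors, 0 were 2-fold apart at either condition. Irf8, Nr1h3, Bhlhe41, Ikzf1 and Gfi1 had Wip1+/+ signals under 2 times the floor, so they could not be called lower. Bhlhe41 read 80.9 and 49.9 against 10.9 and 42.7, which the floor kept under 2-fold. Among 6 measured genes of MHC class II, 0 were 2-fold apart, and Cd74, the invariant chain of antigen presentation, read 12.8 to 77.3. Only H2-DMa, at 182 and 179 in Wip1+/+ cells, reached 2 times the floor there, so the others could not be called lower. Lysosomal genes that all cell types use formed another list. Of 17 measured, 1 was at least 2-fold lower without irradiation, Ctsz, and 0 with it, with medians of -0.08 and -0.04. Of all named genes, 5.07% and 2.31% were at least 2-fold lower.

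Markers of other blood cells were measured on the same arrays. T cell, B cell, NK cell, neutrophil and mast cell lists held 9, 7, 5, 9 and 7 measured genes, and 0 of these were at least 2-fold lower in either comparison. A call of lower needs a Wip1+/+ signal at least 2 times the floor. Only Cd8a, Zap70 and, with irradiation, Ngp reached that, so the 0 was nearly fixed in advance. Elane, of the neutrophil list, read 71.9 and 88.5 against 21.9 and 20.2, which the floor kept under 2-fold. At least 2-fold higher were 1 T cell gene and 1 B cell gene, both without irradiation, against 5.58% of all named genes. Pax5, the B cell lineage factor, read 18.6 and 75.9 against 262 and 50, at least 5.63-fold higher in the first pair and 1.52-fold lower in the second. Of all these genes 5, 6, 2, 4 and 2 were above the floor on any array, the brightest being Zap70, a T cell kinase, at 205 and 290 against 692 and 320, the T cell gene counted. In the erythroid and megakaryocyte list, Pf4, a platelet chemokine, read 485 and 552 against 158 and 192, while Ppbp, another platelet chemokine, read 261 and 358 against 1145 and 804. Among 8 endothelial genes Emcn, an endothelial sialomucin, read 267 and 239 against 58.5 and 116. Kdr, an endothelial growth factor receptor, read 130 and 147 against 264 and 149, 2.04-fold higher without irradiation, and Pecam1 was under the floor on all 4 arrays. Of 16 fibroblast genes, 12 were higher on the unirradiated array labelled Wip1-/- and 13 on the irradiated one. Of all 18193 named genes, 8104 and 6742 were higher. The medians of the 16 were 0.46 and 0.13, the first of which was 0.15 after quantile normalization. Lum, a matrix proteoglycan, had the widest ratio of these 16 genes and was lower, at 339 and 248 against 96.0 and 164. It was 3.53-fold and 1.51-fold lower with no overlap between labels. Whether these differences have a part in the myeloid result was not tested.

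**Figure D4:**
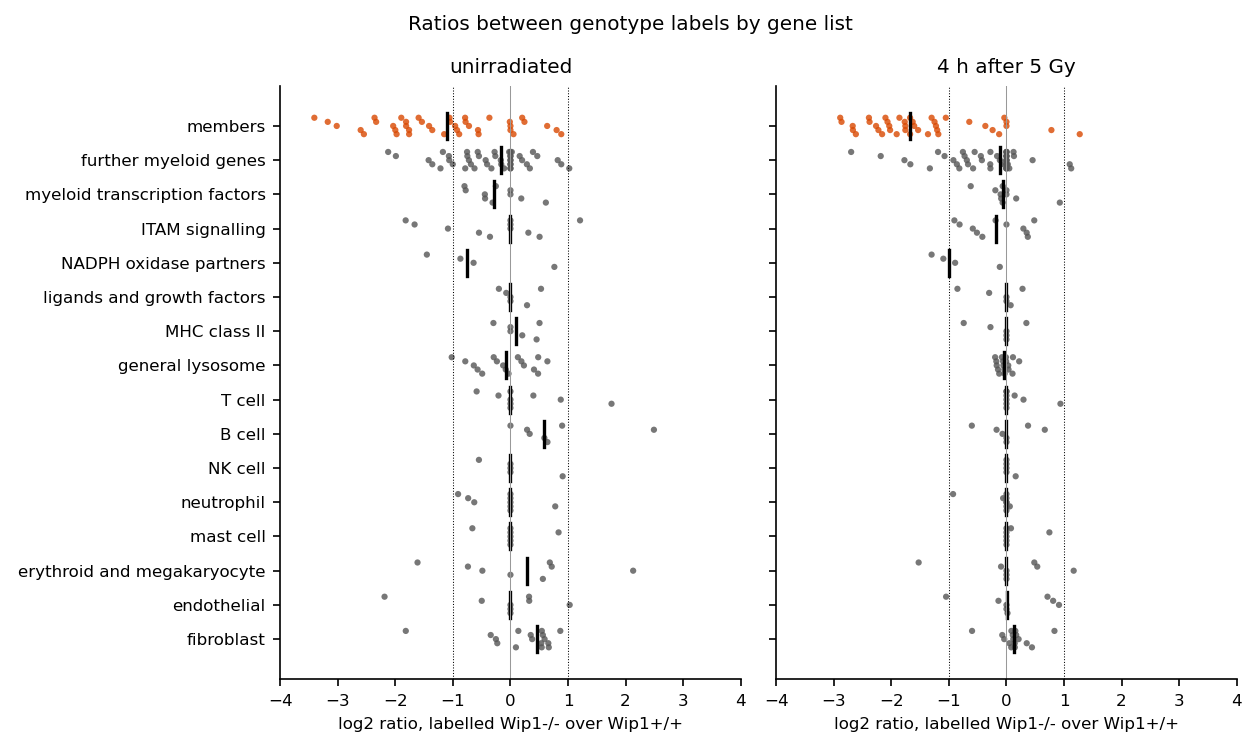
Log2 ratio of each gene, labelled Wip1-/- over Wip1+/+, by gene list, in unirradiated cells (left) and 4 h after 5 Gy (right). Each point is a gene, black bars are list medians and dotted lines mark a 2-fold difference. The 40 members have medians of -1.10 and -1.68, and the fibroblast genes 0.46 and 0.13.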

How the data were processed

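RNA of mouse embryonic fibroblasts was measured on 4 arrays, 1 per genotype label and condition. The values deposited by the authors are signal intensity on a linear scale, 1 per probe set. GCOS is named per the submitters' processing notes. Its version, background step and scaling target are not stated. The values were used as deposited, with no renormalization.

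Probe sets with 1 symbol in the platform annotation (34945) were used, and those with several (932) or none listed (9160) were left out. Gene identifiers, set against RefSeq, changed 0 symbols. Each gene took its brightest probe set. Values were floored at 46.5 and compared as log2 ratios, with at least 2-fold as the rule of size. No filter on low values was applied. A mean of at least 67.95, the median over probe sets, was passed by 38 of the 40 members. The members and lists were chosen with earlier results of these data known. Members at least 2-fold apart in a comparison are described singly, as are up to 4 genes of each other list, by widest ratio. Python 3.11.15 and R 4.3.3 with limma 3.58.1 were used. The ratio and call steps were tested on simulated data. Alternatives were 3 scalings, 2 floors, 2 filters, the median over probe sets, leaving out _x_at and _s_at probe sets, and the mean of both Wip1+/+ arrays as the reference.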

Additional observations from a re-analysis of the deposited data

Results flagged for a closer look

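For 3 genes the irradiation ratios went opposite ways by at least 1.5-fold in the 2 genotype labels, against 1.84% of all named genes, and with 1 array per group this difference was not tested. Itgb2 had a log2 ratio of 0.89 in Wip1+/+ cells and of -1.07 on the arrays labelled Wip1-/-, the latter against the floor. Msr1 had 0.71 and -0.78, the latter also against the floor, and Fcgr1 had 0.60 and -0.63. The other probe set of Fcgr1 did not repeat the opposite signs. Those of Msr1 were under the floor on both arrays labelled Wip1-/-, so they could not show a fall there. In Wip1+/+ cells their log2 ratios were 1.23, 0.51 and 0.00.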

How the results depend on the processing

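No paired analysis was possible because each group held 1 array and no test was run. The median log2 ratio between labels stayed between -1.76 and -0.96 without irradiation under 9 alternatives and between -1.85 and -1.29 with it under 10. The mean of both Wip1+/+ arrays as the reference was run for irradiated cells only. A filter at the 67th percentile of means, which kept 14 of the 40 genes, gave a median of -1.76 without irradiation, 10 genes at least 2-fold lower without and 12 with irradiation, 13 genes with no overlap between labels, and 0 and 1 genes at least 2-fold apart after irradiation in Wip1+/+ and on the arrays labelled Wip1-/-. Fewer genes enter that setting, and members such as Cd68 and Tyrobp pass it only through their Wip1+/+ signals. After irradiation of Wip1+/+ cells, 5 genes were 2-fold apart with a floor at the 25th percentile, 5 with no floor and 0 by the median over probe sets. On the arrays labelled Wip1-/- the counts were 11 with no floor and 3 by the median over probe sets. The cause was not tested. Counts between labels otherwise stayed within 1.5 times. Without _x_at and _s_at probe sets Lyz1 had a log2 ratio of 1.59 without irradiation, the only gene at least 2-fold apart whose direction turned. Of 660 single-gene values under alternatives, 616 moved by less than the SD between probe sets. Many of these could not move, so the count overstates how stable the values are. A filter leaves the ratio of a kept gene unchanged. The median over probe sets does so for the 20 genes with 1 probe set. Signals near the floor limit the dim genes.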
